A study of Osmia excavata with 6 samples.

Results

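Zinc finger proteins carry short folds in which cysteine and histidine residues hold a zinc ion. Many C2H2 fingers in a row read DNA, so a large share of the family are transcription factors, while other finger types bind RNA, ubiquitin or methylated chromatin. In insects the family includes old developmental regulators and a fast-growing branch whose proteins begin with a zinc finger-associated domain (zf-AD), a protein-pairing module. Here the zinc finger protein genes of Osmia excavata, a solitary mason bee that passes the winter in a cocoon, are described in whole-transcriptome libraries. Of the 37061 assembled genes in the deposited table, 147 were taken: those whose best protein match names a bee genus and reads "zinc finger protein", with E3 ubiquitin ligases left out. The best match was the leafcutter bee Megachile rotundata for 98 of them, Eufriesea for 14, Habropoda for 11, Apis for 11, Bombus for 6, Dufourea for 5, and Melipona and Ceratina for 1 each.

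The study compared 3 control libraries with 3 libraries of bees treated by water immersion, whose titles call them a decocooning group. It asks which transcripts accompany the help that immersion gives to leaving the cocoon. The sources used here do not give the strain, sex, age or body part, the number of bees per library, or the time between immersion and sampling. Effects of wetting and of leaving the cocoon therefore cannot be told apart, and replicates may be technical, so each p-value measures the spread between these libraries alone. Markers of muscle, fat body, nervous system and germline were all above 0 in every library, as in tissue of several kinds. In such mixed samples, fewer cells of a type and less RNA per cell cannot be told apart.

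The libraries held between 16765886 and 19953734 estimated counts, and 136 to 140 of the 147 genes had a count in each. Control 1 and the immersion libraries also held reads of other organisms: genes matching Caenorhabditis worms reached 3464 CPM (counts scaled to library size) in control 1, 0.908 and 0.208 in controls 2 and 3, and 14053 to 14978 after immersion. Among the tested zinc finger genes, control 1 was the control nearest to the immersion mean in 85 of 119 (71.4%), against 71.7% of all Hymenoptera-matched genes. Control 3 was the farthest in 94 (79.0%, against 76.9%). The median SD between controls was 0.34 on the log2 scale and that between immersion libraries 0.12, and the SD was larger between controls for 99 of the 119 genes. The controls thus form a spread, from control 1 beside the immersion libraries to control 3 farthest away, and each result below is given with that in view.

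**Figure D1:**
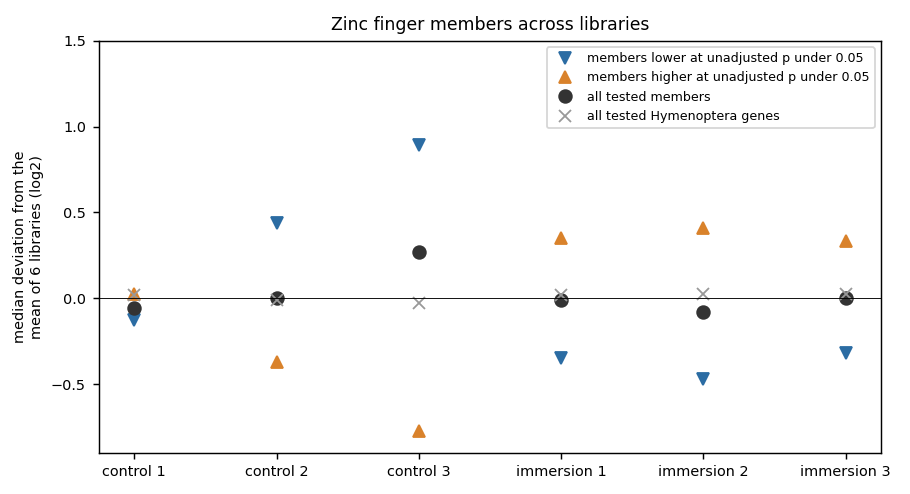
Each symbol is the median, over a set of genes, of the log2 deviation of 1 library from the mean of the 6 libraries. Black circles are the 119 tested zinc finger genes, crosses all tested Hymenoptera-matched genes, and triangles the 21 zinc finger genes lower and the 19 genes higher after immersion by unadjusted p (under 0.05). Since those 40 were picked by their difference between groups, what the triangles add is the order of the controls: control 1 lies closest to the immersion libraries and control 3 farthest from them.

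The assembled set was uneven in completeness. Of the 147 genes, 119 passed the filter on low counts. The 28 that did not were fragments of 204 to 702 bases (median 371) with at most 17.1 estimated counts in any library, and 2 of them had no count at all once rounded. The tested genes were 288 to 8757 bases long, with a median of 2812 against 2561 for all tested Hymenoptera-matched genes. Among the fragments were the genes matching topi, a regulator of sperm formation in Drosophila, the fez family protein 2, a forebrain factor in vertebrates, and GLI2, a transcription factor of Hedgehog signalling in vertebrates, so nothing can be said of these. The 147 genes lay in 122 assembly components, and 40 of them shared a component with another. In the extreme case 5 short pieces lay in 1 component, 4 of them named zinc finger protein 473, and none was tested. Pieces of 1 locus can be listed as several genes, and reads of near-identical fingers can be split among them, so single numbered genes are uncertain.

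The names are those of the best match and only in part say what the gene is. Most, 113 of 147, carry a vertebrate number. Another 20 carry an own name such as Noc or Elbow, 11 a name from frog oocytes or gastrulae, and 3 a name of another form. A Swiss-Prot name was listed for 47, and 21 had a listed zf-AD domain, which no vertebrate number conveys. For some genes the table's 2 descriptions disagree. Zinc finger protein 845 isoform X1 (TRINITY_DN254_c0_g1) has the Swiss-Prot match FHL2, a LIM-domain protein of muscle in mammals. Zinc finger protein 354A (TRINITY_DN1830_c0_g2) is matched to Bbs7, a subunit of the ciliary BBSome. Others are matched to TBCK, Oat or CG3817, none of which is known as a zinc finger transcription factor. For such genes the name rests on only 1 of the table's descriptions.

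Levels between genes are compared in the deposited TPM (levels scaled for transcript length and library size). The tested zinc finger genes had a median mean level of 14.3 TPM, below the 22.7 TPM of all tested Hymenoptera-matched genes. Their mean levels ran from 1.33 to 714 TPM, with 27 of 119 under 5 TPM, 11 over 50 and 4 over 100. The highest was the FHL2-matched gene, with 654, 892 and 1009 TPM in controls 1, 2 and 3 and 570.0, 447 and 713 TPM after immersion. Second was CCHC-type zinc finger protein CG3800-like (TRINITY_DN883_c0_g1), a relative of the nucleic acid binding protein CNBP, with 276, 329 and 378 TPM in controls and 325, 292 and 320.2 TPM after immersion. The FHL2-matched gene had a log2 fold change of -0.52 ± 0.23 (edgeR adjusted p = 0.152) and CG3800-like one of -0.02 ± 0.17, and the groups of both overlapped. Next came AN1-type zinc finger protein 5 (TRINITY_DN13146_c0_g1), matched to the ubiquitin-binding protein ZFAND6, at a mean of 305 TPM. Zinc finger protein 805-like (TRINITY_DN2506_c0_g1), a zf-AD gene, stood at 134 TPM with a log2 fold change of -0.37 ± 0.22, and GLI1-like (TRINITY_DN577_c0_g1) at 90.3 TPM. Without control 1 the FHL2-matched gene and 805-like passed, with edgeR adjusted p of 0.0454 and 0.0342. Summed over all 147 genes the family held 3244, 3989 and 4472 TPM in controls 1, 2 and 3 and 3324, 3032 and 3482 TPM after immersion. Without the 3 most abundant genes the sums were 2050, 2369 and 2585 TPM against 2191, 2090 and 2221 TPM. In the first sum control 1 lay inside the range of the immersion libraries, and in the second below it.

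No zinc finger gene differed between immersion and control past the adjusted threshold of 0.05 in edgeR's quasi-likelihood test with Benjamini-Hochberg adjustment over 9250 Hymenoptera-matched genes (0 of 119, against 0.0% of all genes tested). The lowest adjusted p of a member was 0.0891, and the lowest of any gene was 0.0639. At an unadjusted p under 0.05, 40 of 119 differed (33.6%), against 34.8% of all genes. Of these, 21 were lower after immersion (17.6%, against 20.6%) and 19 higher (16.0%, against 14.2%). The libraries of the groups did not overlap for 49 of 119 (41.2%, against 46.2%), 23 lower (against 22.2%) and 26 higher (against 24.0%). These shares lie near those of the whole transcriptome. Log2 fold changes, immersion minus control, ran from -1.29 to 1.70 with a median of -0.15, beside 0.02 for all genes; 67 of 119 were negative (56.3%, against 48.8%). That median turned to 0.07 with a term for the libraries holding worm reads and to 0.031 without control 3.

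Which genes passed depended on the tool and on the controls. DESeq2 called 24 of 119 genes at the adjusted threshold, 14 lower and 10 higher (20.2%, against 22.1% of all genes, 14.9% lower and 7.21% higher). With control 1 left out, edgeR called 58 of 123, 31 lower and 27 higher (47.2%, against 52.3% of all genes, 26.6% lower and 25.7% higher), and the 24 of DESeq2 were all among them. Treatment and the reads of other organisms divide those 5 libraries alike. Without control 3, edgeR called 3 of 122 (2.46%, against 3.87%): zinc finger protein 1 and Noc lower (against 2.98%) and PR domain zinc finger protein 5-like higher (against 0.887%). With a term for the 4 libraries that hold worm reads, which leaves control 1 as the only control set against immersion, edgeR called none at the adjusted threshold (against 0.0108%) and 4 of 119 at an unadjusted p under 0.05 (3.36%, against 7.6%). Of the 21 lower genes, 18 kept their sign in that fit, with their median log2 fold change at -0.27 in place of -0.89. All 19 higher genes kept theirs, with the median at 0.33 in place of 0.69. In all 19 higher and in 16 of the 21 lower genes the groups did not overlap. Control 1 already lay on the control side there, so a kept sign was fixed in advance. Only the sizes of the changes are informative for those genes.

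Regulators of development and cell fate made up 8 of the 21 lower genes. The role groups used here were set by hand from the gene names after values had been seen, so their counts describe and do not test, and members named outside the rule for named genes were chosen the same way. Of 18 such regulators 15 were tested. GLI1-like is counted among them, though its Drosophila match sugarbabe acts in metabolism. Of the 15, 14 had a negative log2 fold change (10 with the term for libraries with worm reads, 13 with the length trend removed). At an unadjusted p under 0.05, 8 of these regulators were lower (against 20.6% of all genes) and none higher (against 14.2%). They were long, with a median of 3912 bases. Of all genes longer than 2812 bases, 35.6% were lower and 4.48% higher, with a median log2 fold change of -0.32. The median log2 fold change of the regulators was -0.76, beside -0.15 for all tested zinc finger genes. That median was -0.16 with the term for libraries with worm reads, -0.38 without control 3 and -0.45 with the length trend removed. DESeq2 called 6 of the 15 (against 22.1% of all genes), and edgeR called 10 without control 1 (against 52.3%) and 2 without control 3 (against 3.87%). Summed markers of muscle (10 genes, 10 negative, 8 lower at an unadjusted p under 0.05) were also lower after immersion, at 7660 to 13976 normalised CPM against 16329 to 27763 in controls. Fat body markers (7 genes, 4 negative and 4 lower, median log2 fold change -1.15) summed to 10048 to 12190 after immersion and 19530 to 79569 in controls. Nervous system markers (8 genes, 5 negative, 4 lower and 1 higher, median -0.56) summed to 383 to 402 and 361 to 525. Germline markers (4 genes, 2 negative, none lower and 1 higher) summed to 648 to 753 and 520 to 1044. Their part in the result was not tested.

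Zinc finger protein 1 (TRINITY_DN2201_c0_g1) matches zfh1, in Drosophila a repressor with zinc fingers and a homeodomain that acts in mesoderm, muscle precursors and stem cells. It had 59.0, 88.0 and 115 normalised CPM in control libraries 1, 2 and 3 and 32.0, 35.2 and 41.1 after immersion. Every immersion library lay below every control, and control 1 was the lowest control. The means were 87.2 ± 27.8 and 36.1 ± 4.64 (SD, n = 3 each). The fitted log2 fold change was -1.27 ± 0.25 (SE), or 2.41-fold lower, and its adjusted p by the edgeR quasi-likelihood method was 0.0891. It was the member with the smallest p, and it passed without control 3 (-1.03, edgeR adjusted p = 0.0348) and without control 1 (-1.48, edgeR adjusted p = 0.00623). Against control 1 alone its log2 fold change was -0.71, one of 2 lower genes still at an unadjusted p under 0.05.

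Noc and Elbow are sister genes: in Drosophila no ocelli and elbow B act together in the eye, the tracheal tubes and the limb buds. Noc (TRINITY_DN4036_c0_g1) had 113, 159 and 217 normalised CPM across controls and 86.5, 75.4 and 79.7 after immersion. Elbow (TRINITY_DN5764_c0_g1) had 30.3, 46.9 and 57.7 in controls and 24.5, 19.3 and 24.1 after immersion. Neither pair of groups overlapped, and in both genes control 1 was the lowest control and control 3 the highest. The log2 fold changes were -1.02 ± 0.24 for Noc and -0.99 ± 0.26 for Elbow, each with an edgeR adjusted p of 0.0907. Without control 3 the value of Noc was -0.76 (edgeR adjusted p = 0.0465) and that of Elbow -0.77. Both passed without control 1, with edgeR adjusted p of 0.0068 and 0.00723. Against control 1 alone their log2 fold changes were -0.49 and -0.42 (edgeR adjusted p = 0.648 and 0.698), and with the length trend removed that of Elbow was -0.49.

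Repressors and cofactors known from blood and heart formation had the same order of controls, with control 1 lowest and control 3 highest. Gfi-1b (TRINITY_DN9336_c0_g1), in mammals a repressor in blood cells and in Drosophila related to the sense organ factor senseless, had 17.7, 21.3 and 34.9 normalised CPM across controls and 11.6, 12.3 and 15.8 after immersion (log2 fold change -0.89 ± 0.29, edgeR adjusted p = 0.105). A gene named zinc finger protein 547-like but matched to GFI1B (TRINITY_DN4767_c0_g1) had 4.003, 7.34 and 11.2 in controls and 3.68, 3.60 and 4.79 after immersion. Its groups overlapped, because immersion 3 exceeded control 1. ZFPM1 (TRINITY_DN2894_c0_g1) matches Drosophila u-shaped, a partner of GATA factors, and had 40.0, 57.5 and 98.3 in controls and 35.9, 32.8 and 37.2 after immersion (-0.89 ± 0.31, edgeR adjusted p = 0.114). Its log2 fold change was -0.18 against control 1 alone, and without control 1 it passed at -1.14 (edgeR adjusted p = 0.00995). Gfi-1b and the GFI1B-matched gene also passed without control 1, with edgeR adjusted p of 0.0156 and 0.0128, and stood at -0.42 and 0.01 against control 1 alone.

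GLIS2 (TRINITY_DN577_c0_g2), a Gli-similar factor known from the kidney in mammals, and GLI1-like (TRINITY_DN577_c0_g1) lie in the same assembly component, so that reads can be split between them. The latter matches Drosophila sugarbabe, which responds to dietary sugar and controls genes of fat and sugar metabolism, a role apart from development. GLI1-like is still counted with the developmental regulators in the group values given here. GLIS2 had 39.1, 57.6 and 57.8 normalised CPM across controls and 21.7, 31.4 and 33.8 after immersion, with no overlap (-0.83 ± 0.24, edgeR adjusted p = 0.0924). GLI1-like had 172, 217 and 258 in controls and 111, 173 and 178 after immersion. Its groups overlapped in control 1 alone, and its log2 fold change was -0.48 ± 0.24 (edgeR adjusted p = 0.182). Without control 1 GLIS2 passed (edgeR adjusted p = 0.0109) and GLI1-like did not (0.0555), and against control 1 alone they stood at -0.43 and -0.16.

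Further patterning genes had smaller or overlapping differences. Rotund-like (TRINITY_DN461_c0_g1), in Drosophila a gene of leg and wing segments, had 70.0, 118 and 179 normalised CPM across controls and 69.4, 65.2 and 82.5 after immersion, and its log2 fold change of -0.76 ± 0.32 became 0.05 against control 1 alone. ZIC 4-like (TRINITY_DN1707_c0_g1) matches odd-paired, a Drosophila segmentation gene, and had 18.0, 28.4 and 39.7 in controls and 20.1, 17.4 and 20.04 after immersion. Control 1 lay inside the immersion range there, and the log2 fold change of -0.58 became 0.09 against it alone. A frog-named oocyte protein matched to SCRT1, a neuronal repressor in mammals (TRINITY_DN3803_c0_g1), the ZNF423 homolog Oaz (TRINITY_DN13313_c0_g2), the Ikaros relative Helios (TRINITY_DN1172_c0_g1) and a BCL11A-matched gene (TRINITY_DN7589_c0_g2) had log2 fold changes between -0.46 and -0.15, all with overlapping groups. The exception in sign was zinc finger protein 121-like (TRINITY_DN2893_c0_g2), matched to charlatan, a Drosophila regulator of sensory neurons. It had 31.7, 36.0 and 45.1 normalised CPM across controls and 43.6, 42.6 and 46.3 after immersion (0.23 ± 0.18, edgeR adjusted p = 0.336).

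**Figure D2:**
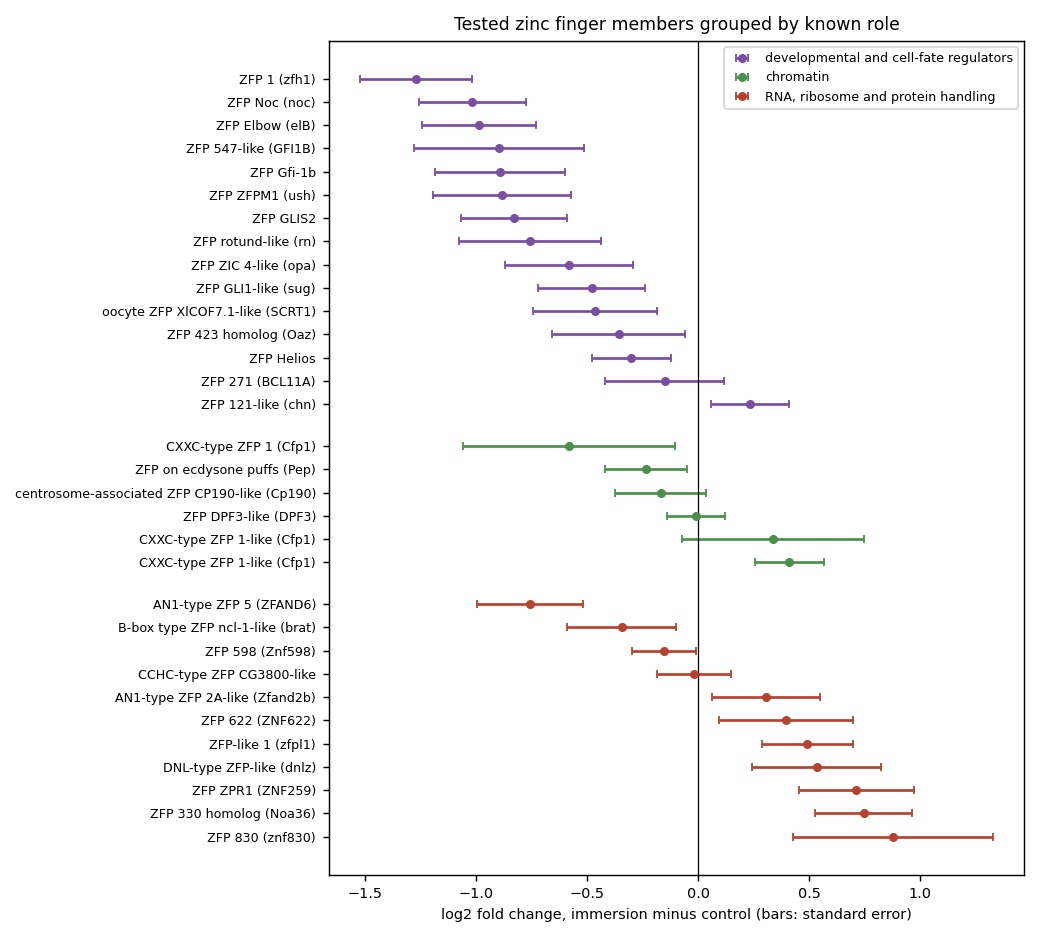
Points are log2 fold changes (immersion minus control) of the 32 tested zinc finger genes placed in a role group, and bars are the standard error from edgeR's quasi-likelihood test. Developmental regulators lie mostly left of 0, from -1.27 for zfh1 to 0.23 for the charlatan match, chromatin genes lie around 0, and 7 of 11 genes of RNA, ribosome and protein handling lie right of 0.

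Chromatin proteins had log2 fold changes from -0.58 to 0.41, and none passed the adjusted threshold with all libraries. The 3 genes named CXXC-type match Cfp1, the CXXC-finger subunit that brings the Set1 methyltransferase to promoters. The most abundant of them (TRINITY_DN4192_c3_g1) had 23.8, 24.3 and 25.2 normalised CPM across controls and 32.3, 30.0 and 35.4 after immersion. In this gene the controls lay close together and the groups did not overlap, and its log2 fold change was 0.41 ± 0.16 (edgeR adjusted p = 0.124) and 0.45 against control 1 alone. The most negative value of the group came from another Cfp1 match (TRINITY_DN1060_c5_g1), with 1.38, 1.18 and 2.25 normalised CPM across controls and 1.66, 0.515 and 1.02 after immersion (-0.58 ± 0.48, edgeR adjusted p = 0.374), and its groups overlapped. DPF3-like (TRINITY_DN3236_c0_g1), a chromatin-remodelling subunit, had 63.7, 67.2 and 72.9 in controls and 64.0, 70.4 and 68.1 after immersion (-0.01 ± 0.13). Cp190 (TRINITY_DN2548_c0_g1), a Drosophila insulator protein, and Pep (TRINITY_DN23163_c0_g1), found on ecdysone puffs of Drosophila polytene chromosomes, had log2 fold changes of -0.17 and -0.24 with overlapping groups. Over the 6 tested genes of the group the median log2 fold change was -0.09. It was 0.02 with upper quartile scaling, 0.11 with the term for libraries with worm reads and 0.048 without control 3. At an unadjusted p under 0.05, 1 was higher (16.7%, against 14.2% of all genes) and none lower (against 20.6%).

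Genes of RNA, ribosome and protein handling had a positive median. Of 11 tested, 7 had a positive log2 fold change. At an unadjusted p under 0.05, 3 were higher (against 14.2% of all genes) and 1 lower (against 20.6%). They were short, with a median of 1750 bases. Of all genes not longer than 2812 bases, 22.2% were higher and 8.31% lower, with a median log2 fold change of 0.35. The median of the 11 was 0.40, near that value. It was 0.13 without control 3, 0.15 with the term for libraries with worm reads and 0.24 with the length trend removed. DESeq2 called 2 of the 11 (against 22.1% of all genes), and edgeR called 6 without control 1 (against 52.3%) and none without control 3 (against 3.87%), shares that lie near those of all genes. Zinc finger protein 330 (TRINITY_DN11759_c0_g1) matches the nucleolar protein Noa36 and had 30.5, 22.1 and 18.0 normalised CPM across controls and 38.6, 40.2 and 39.7 after immersion. The groups did not overlap, with control 1 the highest control, and the log2 fold change was 0.75 ± 0.22 (edgeR adjusted p = 0.0942). ZPR1 (TRINITY_DN2414_c0_g2), which binds a translation elongation factor, had 33.0, 20.3 and 17.0 in controls and 37.8, 40.4 and 37.3 after immersion (0.71 ± 0.26, edgeR adjusted p = 0.118). Zinc finger protein-like 1 (TRINITY_DN25226_c0_g1), a Golgi protein, had 42.2, 40.1 and 27.3 in controls and 50.9, 56.9 and 46.4 after immersion (0.49 ± 0.20, edgeR adjusted p = 0.139). Without control 1 these genes passed, with edgeR adjusted p of 0.00769, 0.00741 and 0.0431. Against control 1 alone their log2 fold changes were 0.37, 0.22 and 0.28.

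The DNL-type gene (TRINITY_DN25551_c0_g1), whose product guards a mitochondrial chaperone, had 50.04, 30.7 and 22.0 normalised CPM across controls and 48.6, 54.3 and 46.3 after immersion. Control 1 lay inside the immersion range, and the log2 fold change of 0.54 ± 0.29 became -0.01 against control 1 alone. Zinc finger protein 622 (TRINITY_DN8558_c1_g1), a maturation factor of the large ribosomal subunit, had 65.0, 69.4 and 30.6 in controls and 62.6, 81.1 and 73.5 after immersion, so that control 3 alone stood apart. The splicing factor zinc finger protein 830 (TRINITY_DN2903_c0_g1) had 23.3, 15.6 and 5.56 in controls and 26.6, 30.2 and 25.1 after immersion (0.88 ± 0.45, edgeR adjusted p = 0.190). It passed without control 1 (1.36, edgeR adjusted p = 0.0308) and stood at 0.23 against control 1 alone. Zinc finger protein 598 (TRINITY_DN2049_c0_g1), a sensor of collided ribosomes, had a log2 fold change of -0.15 with overlapping groups. The member of the group that was lower was the abundant AN1-type 5 gene, with 273, 394 and 521 normalised CPM across controls and 241, 225 and 236 after immersion. Its groups did not overlap (-0.76 ± 0.24, edgeR adjusted p = 0.103), it stood at -0.22 against control 1 alone, and it passed without control 1 (edgeR adjusted p = 0.00795).

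The rest of the genes with the smallest p carry numbers and no known role in bees. On the lower side, zinc finger protein 608 (TRINITY_DN1394_c0_g1) had the most negative log2 fold change of all members, with 24.8, 54.2 and 85.0 normalised CPM across controls and 22.7, 18.0 and 26.2 after immersion. Control 1 lay inside the immersion range, and the log2 fold change of -1.29 ± 0.41 (edgeR adjusted p = 0.104) became -0.15 against control 1 alone and -1.64 without control 1 (edgeR adjusted p = 0.00723). A short piece named 608-like in another component (TRINITY_DN428_c1_g5) had 3.19, 5.41 and 9.65 in controls and 2.95, 2.47 and 2.53 after immersion. Its control 1 was the lowest control and lay above every immersion library, and its log2 fold change of -1.19 became -0.27 against control 1 alone. Zinc finger protein 271-like (TRINITY_DN3824_c0_g4) had 7.51, 8.83 and 12.2 in controls and 4.76, 3.86 and 4.20 after immersion, without overlap. Its log2 fold change was -1.15 ± 0.26 (edgeR adjusted p = 0.0907) and stayed at -0.81 against control 1 alone, where it was the other lower gene at an unadjusted p under 0.05. Zinc finger protein 853 (TRINITY_DN14815_c0_g2), at 1.40 TPM, had 3.19, 4.73 and 4.16 normalised CPM across controls and 2.12, 2.16 and 1.35 after immersion (-1.10 ± 0.30, edgeR adjusted p = 0.0914). The Bbs7-matched zinc finger protein 354A had 80.9, 109 and 117 in controls and 68.3, 64.0 and 59.9 after immersion (-0.68 ± 0.17, edgeR adjusted p = 0.0907). Without control 1 these 271-like, 853 and 354A genes passed too, with edgeR adjusted p of 0.00826, 0.0153 and 0.00723, and the last 2 stood at -0.76 and -0.34 against control 1 alone.

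On the higher side PR domain zinc finger protein 5-like (TRINITY_DN4300_c0_g1) had the smallest p. It had 19.6, 16.2 and 10.1 normalised CPM across controls and 30.7, 33.3 and 30.3 after immersion. All immersion libraries lay above all controls, by more than the spread within either group, with a fitted difference of 2.05-fold (log2 fold change 1.04 ± 0.26, edgeR adjusted p = 0.0907). It passed without control 3 (0.81, edgeR adjusted p = 0.0424) and without control 1 (1.25, edgeR adjusted p = 0.00895), and stood at 0.68 against control 1 alone. Zinc finger protein 2-like (TRINITY_DN27290_c0_g1) had 6.76, 2.67 and 2.75 in controls and 10.9, 8.34 and 9.37 after immersion (1.23 ± 0.39, edgeR adjusted p = 0.104). Here controls 2 and 3 were alike and control 1 lay between them and the immersion libraries. Zinc finger protein 675-like (TRINITY_DN316_c1_g1) had 31.0, 25.4 and 27.0 in controls and 40.2, 38.0 and 40.0 after immersion (0.50 ± 0.16, edgeR adjusted p = 0.101). Zinc finger protein 431-like (TRINITY_DN4828_c0_g1) had 13.8, 10.9 and 11.8 in controls and 18.2, 17.5 and 19.3 after immersion (0.59 ± 0.19, edgeR adjusted p = 0.104). In both genes the controls lay close together. The 271-like gene of another component (TRINITY_DN3342_c0_g1) had 19.1, 14.7 and 11.7 in controls and 23.2, 22.9 and 25.9 after immersion (0.66 ± 0.23). Zinc finger protein 239-like (TRINITY_DN2854_c0_g1) had 28.2, 16.5 and 13.4 in controls and 34.2, 38.9 and 31.8 after immersion (0.85 ± 0.29). Against control 1 alone the 2-like gene stood at 0.50, the 271-like gene at 0.33 and the 239-like gene at 0.31. Of the 10 higher genes with the smallest p, edgeR called 10 without control 1 (against 52.3% of all genes) and 1 without control 3 (against 3.87%). DESeq2 called 9 (against 22.1%). Since these genes were picked by p in the same libraries, such calls follow largely from that choice.

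**Figure D3:**
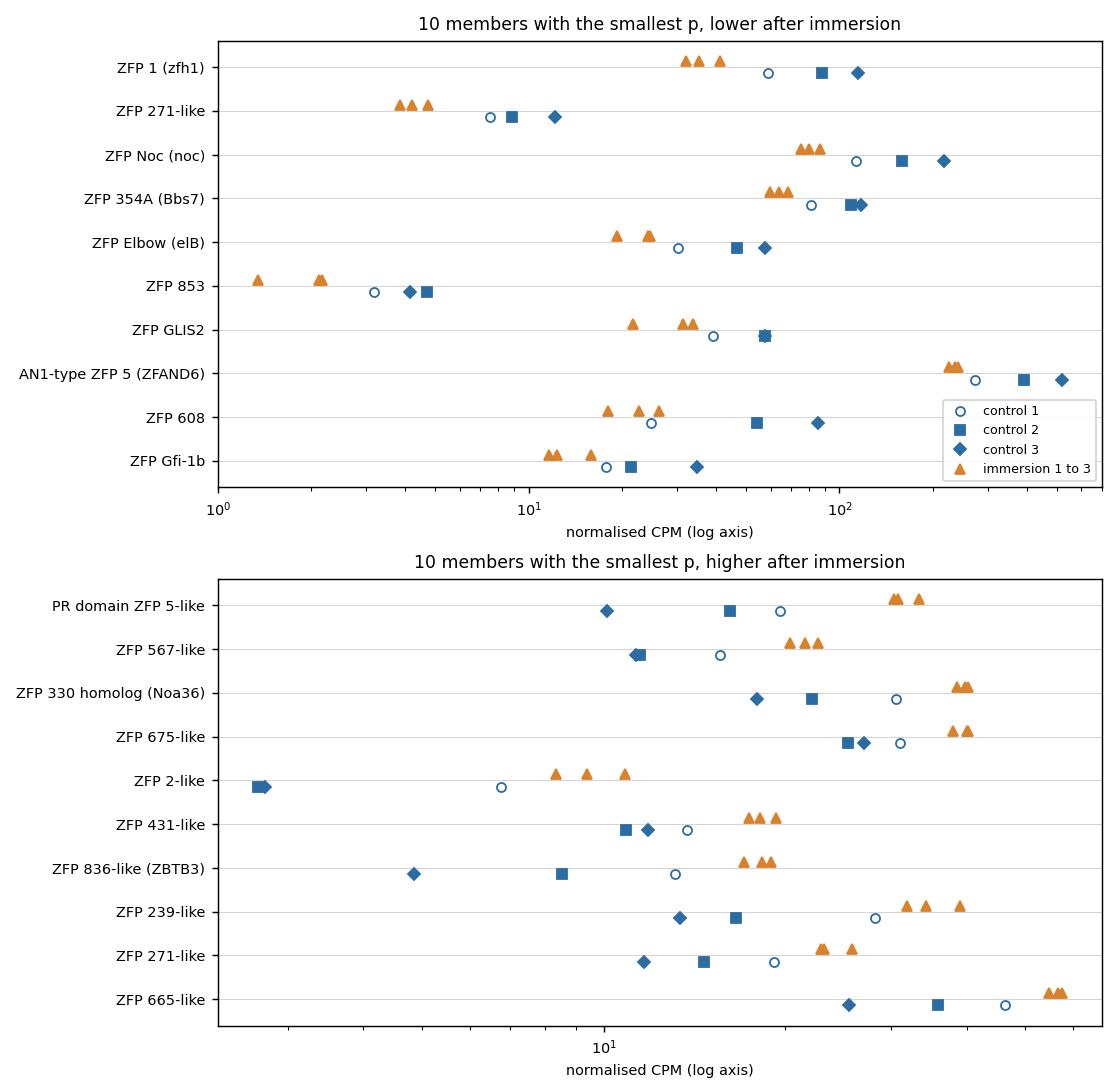
Normalised CPM (log axis) of the 10 lower and the 10 higher zinc finger genes with the smallest p, 1 symbol per library: an open circle for control 1, a square for control 2, a diamond for control 3 and triangles for the immersion libraries. In 19 of the 20 genes the groups do not overlap (against 46.2% of all genes tested), the exception being zinc finger protein 608. In all 20 control 1 is the control closest to the mean of the immersion libraries (against 71.7%). Since the 20 were picked by the smallest p in these same libraries, the lack of overlap follows largely from that choice.

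The zf-AD genes, the insect branch of the family, all passed the filter on low counts (21 of 21). Their median log2 fold change was 0.05 with 14 of 21 positive. At an unadjusted p under 0.05, 2 were lower and 5 higher (9.52% and 23.8%, against 20.6% and 14.2% of all genes). The other 98 tested genes had a median of -0.20, with 19 lower and 14 higher (19.4% and 14.3%), near the shares of all genes. The difference between the lists was not tested. The medians moved to 0.19 and -0.018 without control 3, to 0.13 and 0.05 with the term for libraries with worm reads, and to 0.22 and -0.12 with the length trend removed. Zinc finger protein 567-like (TRINITY_DN8243_c0_g1) led the higher ones, with 15.6, 11.5 and 11.3 normalised CPM across controls and 22.7, 20.4 and 21.5 after immersion (0.75 ± 0.20, edgeR adjusted p = 0.0914). Zinc finger protein 836-like (TRINITY_DN12926_c0_g1) had 13.1, 8.52 and 4.86 in controls and 18.9, 17.1 and 18.3 after immersion (1.03 ± 0.35, edgeR adjusted p = 0.108). Zinc finger protein 665-like, partial (TRINITY_DN528_c0_g1) had 46.3, 35.8 and 25.5 in controls and 56.5, 57.6 and 54.8 after immersion (0.65 ± 0.22, edgeR adjusted p = 0.110). In these 3 genes the groups did not overlap and control 1 was the highest control. Zinc finger protein 850-like (TRINITY_DN17851_c0_g1) was the lowest zf-AD gene, with 89.4, 160.0 and 247 in controls and 89.0, 79.4 and 78.3 after immersion (-1.01 ± 0.34, edgeR adjusted p = 0.107). Its control 1 lay just above immersion 1, and its log2 fold change was -0.12 against control 1 alone. EdgeR called 12 of the 21 without control 1, near the share of all genes (52.3%), and the 4 named here were among them, with adjusted p between 0.00724 and 0.0111. Against control 1 alone the 3 higher genes stood at 0.47, 0.46 and 0.28.

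Of 11 names carried by several tested genes, 6 held log2 fold changes of both signs and 5 of a single sign. Of 7 genes named zinc finger protein 271, 6 were tested and had log2 fold changes from -1.15 to 0.66, 5 of them negative. The 4 named 665 ran from -0.48 to 1.70, the upper end being a piece of 303 bases (TRINITY_DN15287_c0_g1) with 0.876, 0 and 0 normalised CPM across controls and 1.24, 1.18 and 0.539 after immersion. Its groups overlapped, and it was called without control 1, where both controls left had no count. The 7 named zinc finger protein 2 gave 4 tested values from -0.16 to 1.23. The names 91 (3 genes, -0.42 to -0.12), 608 (2 genes, -1.29 and -1.19) and 233 (2 genes, -0.83 and -0.27) had negative values alone, and 800 (2 genes, 0.19 and 0.29) positive ones. All 5 genes named Xfin, after a many-fingered frog protein, were negative, from -0.75 to -0.13, though 2 were positive with the term for libraries with worm reads and 2 with the length trend removed. Xfin-like isoform X1 (TRINITY_DN6444_c0_g1) had 37.4, 61.8 and 97.8 normalised CPM across controls and 40.8, 35.6 and 40.3 after immersion, so control 1 fell inside the immersion range (-0.75 ± 0.32, edgeR adjusted p = 0.144). The longest Xfin-like gene (TRINITY_DN8311_c0_g1) had 49.7, 64.2 and 68.6 in controls and 50.5, 45.1 and 51.3 after immersion (-0.31 ± 0.17, edgeR adjusted p = 0.202). Without control 1 both passed, with edgeR adjusted p of 0.00995 and 0.0276, and against control 1 alone they stood at 0.06 and -0.02.

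By form of name, the 17 tested genes with an own name had a median log2 fold change of -0.34. At an unadjusted p under 0.05, 6 of them were lower and 1 higher (35.3% and 5.88%, against 20.6% and 14.2% of all genes). Their median length was 3547 bases, and their shares lie near those of long genes. Of all genes longer than 2812 bases, 35.6% were lower and 4.48% higher. The 89 numbered genes had a median of -0.10, with 14 lower and 17 higher (15.7% and 19.1%), not far from the shares of all genes. The 10 frog-named genes had a median of -0.23, with 1 lower, and the 3 of other form a median of 0.49, with 1 higher. Both of these classes are too small to set against the shares of all genes. With the term for libraries with worm reads the medians of these 4 classes were -0.02, 0.13, 0.02 and -0.01, in that order. With the length trend removed they were -0.17, 0.00044, -0.23 and 0.25.

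Length moved with the log2 fold change in the transcriptome as a whole, and less so here. Over the 119 zinc finger genes, which share libraries and in part sequence, Pearson's r of log2 fold change with log2 length was -0.18, against -0.42 over all tested Hymenoptera-matched genes. The 59 zinc finger genes longer than their median of 2812 bases had a median log2 fold change of -0.26. At an unadjusted p under 0.05, 16 of them were lower and 7 higher (against 35.6% and 4.48% of all genes over that length). The other 60 had a median of 0.02, with 5 lower and 12 higher (against 8.31% and 22.2% of all genes not longer). These counts lean with length in the same direction as those of all genes. All Hymenoptera-matched genes split at that length had medians of -0.32 and 0.35. The lower zinc finger genes had a median length of 3360 bases and the higher ones 2172. With a loess trend on length removed from each library, 20 of the 21 lower genes and all 19 higher genes kept their sign, with medians of -0.67 and 0.69.

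**Figure D4:**
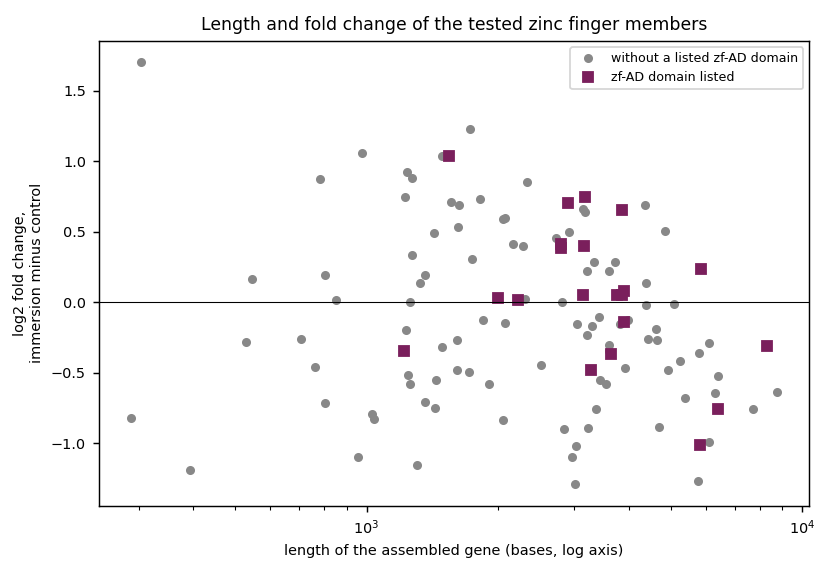
Each point is 1 of the 119 tested zinc finger genes, with the length of the assembled gene in bases on a log axis and the log2 fold change (immersion minus control) from edgeR. Squares mark the 21 genes with a listed zf-AD domain. The 8 genes over 6000 bases all lie below 0, and genes over the median length of 2812 bases lie lower, with a median of -0.26 against 0.02 for the others.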

How the data were processed

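Total RNA was extracted with TRIzol and made into poly(A) libraries with oligo(dT) beads, per the labels' protocols. Tools listed without roles in the submitters' processing notes are cutadapt 1.9, Salmon and edgeR. Settings of the assembly and annotation are not given in sources used here. The deposited table of the authors holds estimated counts and TPM per assembled gene, a length, a protein description and a Swiss-Prot name. TPM values sum to 999511 to 999590 per library. Titles gave the groups.

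Estimated counts were rounded to whole numbers. Of 11315 genes whose match names a Hymenoptera genus, 9250 passed filterByExpr and entered edgeR 4.0.16 in R 4.3.3 (TMM, estimateDisp, glmQLFit and glmQLFTest, two-sided, Benjamini-Hochberg over all 9250, threshold 0.05). Normalised CPM come from the rounded counts and TMM-scaled library sizes. SDs on the log2 scale used an offset of 0.5 CPM. The scripts were tested on simulated data. Depth limits the precision of genes with few counts.

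The members and gene lists were chosen with earlier results of these data known. Named genes are the 10 lower and 10 higher members with the smallest p, the 5 most abundant by TPM, 2 per form of name, and up to 3 related factors per direction. Alternatives were DESeq2 1.42.0, RLE and upper quartile scaling, all rows, no filter, 5 CPM in 3 libraries, a replicate block, a term for libraries with reads of other organisms, a loess length trend (span 0.3) removed and each library left out. EdgeR without its legacy option was added after the data were seen. No pair of libraries was a duplicate. Marker lists covered muscle, fat body, nervous system and germline.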

Additional observations from a re-analysis of the deposited data

Results flagged for a closer look

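Rows that match Caenorhabditis and read zinc finger protein lie outside the comparison and were looked at because their level after immersion exceeded that in every control. Their 19 rows summed to 80.4, 86.4 and 82.0 CPM in immersion libraries 1, 2 and 3, to 23.7 CPM in control 1 and to 0 in controls 2 and 3. All 19 had a count in each immersion library and 16 had one in control 1. Another 19 rows matching mammals summed to 10.2 CPM in control 1, to 0 in controls 2 and 3, and to 5.22, 3.72 and 2.65 CPM after immersion. The bee-matched zinc finger genes summed to 5925 to 6347 CPM in controls and 6034 to 6843 CPM after immersion.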

How the results depend on the processing

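No alternative other than DESeq2 and the fits without control 1 or control 3 called a zinc finger gene. The values that moved were these. DESeq2 called 2042 of all genes tested and 24 zinc finger genes. The term for libraries with worm reads called 1 gene of all, left 2 zinc finger genes lower and 2 higher at an unadjusted p under 0.05, and turned their median log2 fold change to 0.07. The removal of the length trend called 28 genes of all, Krueppel-like factor 10 among them and no member of the zinc finger protein list. With 1 library left out, genes called ranged from 0 to 4912 (362 without control 3) and zinc finger genes from 0 to 58. Those lower at an unadjusted p under 0.05 ranged from 8 (without immersion 2; 11 without immersion 1, 12 without immersion 3) to 42 (without control 1). Those higher ranged from 4 (without control 2; 5 without immersion 1, 6 without immersion 3, 8 without immersion 2) to 30 (without control 1). Shares of all genes at that unadjusted threshold are not given here for these fits. The counts are therefore not read as particular to zinc finger genes. At the adjusted threshold without control 1, the 58 were 47.2% of those tested, against 52.3% of all genes. The median log2 fold change of the zinc finger genes ranged from -0.21 to 0.031, the latter without control 3. The cause was not tested.

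Upper quartile scaling put the median of all genes at 0.12 in place of 0.02, and that of zinc finger genes at -0.05. Of 543 values of the 34 named genes, 468 kept direction and side of the threshold, 64 newly passed it and 11 changed sign, in 5 genes. CCHC-type CG3800-like (TRINITY_DN883_c0_g1, -0.02) stood at 0.0056 with all rows, 0.087 with upper quartile scaling, 0.00048 with no filter, 0.15 with the worm term, 0.24 with the length trend removed, and, with 1 library left out, between -0.094 (without control 1) and 0.091 (without control 3; 0.00072 without immersion 2). With the worm term TRINITY_DN2506_c0_g1 stood at 0.074, TRINITY_DN6444_c0_g1 at 0.057 and TRINITY_DN25551_c0_g1 at -0.00997; with the length trend removed TRINITY_DN8311_c0_g1 stood at 0.29. The replicate block left 21 zinc finger genes lower and 21 higher at an unadjusted p under 0.05, a median of -0.13 and no call. The share of all genes at that threshold is not given here for that fit. Same-numbered libraries deviated with r of -0.15, 0.14 and 0.16, so the numbers were not taken as pairs.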

Other observations

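Genes outside the zinc finger protein list, taken by words in their descriptions, were also measured. The words named zinc fingers in another form of words, factors such as Krueppel, hunchback or tramtrack, or a BTB domain. They select by name, so the genes can share the finger type of the list and need not be regulators. Of 143 such genes 118 were tested, with a median log2 fold change of -0.21 and 73 negative, and 25 were lower and 9 higher at an unadjusted p under 0.05, where 20.6% and 14.2% of all genes were. That is 21.2% lower and 7.63% higher, beside 17.6% and 16.0% of the zinc finger genes; the difference between the lists was not tested. None passed edgeR's adjusted threshold in the fit reported here. Of the 118, DESeq2 called 23 (against 22.1% of all genes). EdgeR called 60 of them without control 1 (against 52.3%) and 4 without control 3 (against 3.87%). Krueppel-like factor 10 (TRINITY_DN14632_c0_g2), in mammals a factor induced by TGF-beta, had the lowest adjusted p of any gene tested. It had 263, 314 and 311 normalised CPM across controls and 138, 143 and 160.3 after immersion (296 ± 28.4 against 147 ± 11.9, SD, n = 3 each; log2 fold change -1.01 ± 0.16, edgeR adjusted p = 0.0639). It passed with the length trend removed (-1.17, edgeR adjusted p = 0.0468), a fit with all 6 libraries, and without control 1 or control 3 (edgeR adjusted p = 0.00669 and 0.0219). Broad-complex core protein (TRINITY_DN1981_c0_g1), in Drosophila an early gene of the ecdysone response and a pupal specifier, had 33.4, 39.8 and 43.2 in controls and 22.3, 14.9 and 18.6 after immersion (-1.06 ± 0.21, edgeR adjusted p = 0.0891). In both genes the groups did not overlap. KCTD16 (TRINITY_DN1599_c0_g1), in mammals a subunit of GABA-B receptors, had 39.7, 64.6 and 75.1 in controls and 27.0, 25.5 and 23.5 after immersion (-1.24 ± 0.25, edgeR adjusted p = 0.0891).

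On the higher side BTBD10 (TRINITY_DN1740_c0_g1) had 61.2, 57.7 and 59.5 normalised CPM across controls and 78.7, 81.5 and 82.8 after immersion, with both groups tight (0.45 ± 0.12, edgeR adjusted p = 0.0923). ZZ-type zinc finger-containing protein 3 (TRINITY_DN4904_c2_g1), a chromatin reader of the ATAC complex, had 6.26, 5.47 and 5.49 in controls and 8.02, 10.3 and 9.59 after immersion (0.70 ± 0.21, edgeR adjusted p = 0.0979). Zcrb1 (TRINITY_DN25461_c0_g1), a part of the minor spliceosome, had 23.2, 15.0 and 7.32 in controls and 30.8, 37.8 and 31.1 after immersion (1.13 ± 0.38, edgeR adjusted p = 0.108). In BTBD10 and the ZZ-type gene the controls lay close together, control 1 included. With the length trend removed BTBD10 stood at 0.36, the ZZ-type gene at 0.33 and Zcrb1 at 0.82. Their edgeR adjusted p in that fit were 0.0899, 0.283 and 0.0991.

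A short Xfin-like piece of 530 bases (TRINITY_DN8311_c0_g2), named here after its values were seen, went against the usual order of controls. It had 0.813, 4.98 and 10.4 normalised CPM in control libraries 1, 2 and 3 and 4.04, 4.74 and 4.47 after immersion.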
